A study of Mus musculus with 12 samples.

Results

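The 10 genes described here drive or restrain the passage of a cell from G1 into S phase: the D cyclins Ccnd1, Ccnd2 and Ccnd3, the E cyclins Ccne1 and Ccne2, the A cyclin Ccna2, the kinase Cdk6, the kinase inhibitor Cdkn1b, the transcription factor E2f1 and the pocket protein Rb1. They were chosen by name, with earlier results of these data known. Each matched 1 of the 36883 rows in the tables of mRNA and of long RNA. In mouse embryonic stem (ES) cells deficient in Drosha, Ccne2 was higher than in wild-type cells in both RNA fractions, 2.55-fold in mRNA and 2.36-fold in long RNA. Ccnd1 was higher in mRNA, by 2.65-fold, and stood 1.78-fold above wild type in long RNA, short of the 2-fold limit. The other 8 members differed by less than 2-fold in mRNA on the scale used for calls, and so did the other 7 tested in long RNA. Cdk6 could not be tested in long RNA.

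D cyclins bind Cdk4 or Cdk6 and phosphorylate the pocket proteins, of which Rb1 is the founding member. Pocket proteins hold E2F factors inactive, and their phosphorylation frees E2F to switch on genes of S phase, among them those of the E cyclins. E cyclins with Cdk2 then complete the phosphorylation and help to fire replication, and inhibitors such as Cdkn1b block these kinases. Mouse ES cells are known for a short G1 phase, with abundant cyclin E activity and pocket proteins that are largely phosphorylated. MicroRNAs of the miR-290 cluster are known to shorten G1 in these cells by lowering inhibitors of the G1 to S passage, Cdkn1a and Rbl2 among them.

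RNA came from Drosha-deficient ES cells and from wild-type ES cells, both kept in serum medium with leukemia inhibitory factor. Drosha cuts microRNA hairpins out of their primary transcripts in the nucleus. The labels of the RNA samples name no parent line; those of the methylation samples of both genotypes, which were not analysed here, name AB1 cells of 129Sv/Ev background or cells derived from AB1, and the sources used here do not say how Drosha was disrupted. Each genotype had 1 library per fraction (poly(A)-selected mRNA, long RNA and short RNA), so no difference has a replicate check and none carries a p-value of its own. Levels are FPKM, fragment counts scaled to transcript length and to library size. A difference is log2((Drosha-deficient FPKM + 1)/(wild-type FPKM + 1)), and a gene was called higher or lower when this reached 1 in size, which is 2-fold; ratios of single genes are given without the added 1 FPKM. The labels call no sample long RNA, and this table was taken by elimination to hold the samples titled total RNA. Depth was estimated from the most frequent low values. In mRNA 1 fragment on 1 kb of transcript was then worth 0.0407 FPKM in the Drosha-deficient and 0.0468 FPKM in the wild-type library, and in long RNA 0.0447 FPKM (Drosha-deficient) and 0.0537 FPKM (wild type). Drosha itself had 6.22 FPKM in Drosha-deficient and 42.1 FPKM in wild-type mRNA. Its long RNA levels were 4.34 FPKM in Drosha-deficient and 21.1 FPKM in wild-type cells. The ES cell factors Pou5f1 and Nanog were high in both genotypes. Pou5f1 had 700 FPKM in Drosha-deficient and 562 FPKM in wild-type mRNA, and Nanog had 207 FPKM in Drosha-deficient and 192 FPKM in wild-type mRNA.

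Several microRNA families made by Drosha are reported, mostly from human cells, to lower genes on this list: let-7 lowers CDK6 and CCND2, miR-16 and its kin lower CCND1 and CCNE1, miR-17 and miR-20a lower CCND1 and E2F1, miR-34a lowers CCNE2 and CDK6, miR-29 lowers CDK6, and miR-221 with miR-222 lowers CDKN1B. One mature sequence of each family is printed here from RefSeq (GRCm38.p6), 5′ to 3′, to show the seed that would pair with such a target. Capitals mark the seed, bases 2 to 8.
let-7i-5p: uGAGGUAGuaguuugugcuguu
miR-195a-5p: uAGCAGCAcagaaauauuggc
miR-20b-5p: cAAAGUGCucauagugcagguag
miR-34a-5p: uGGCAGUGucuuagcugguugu
miR-29a-3p: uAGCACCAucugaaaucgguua
miR-222-3p: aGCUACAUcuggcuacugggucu
miR-294-3p: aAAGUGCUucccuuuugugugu
The miR-17 family seed AAAGUGC and the miR-290 cluster seed AAGUGCU are the same word shifted by 1 base.

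In the short RNA libraries the genes of all these microRNAs stood lower without Drosha, though by very different amounts. Mirlet7i (chromosome 10) was listed at 0 in Drosha-deficient cells, against 684.6 FPKM in wild-type cells. Mir195a (chromosome 11), which shares the seed of miR-16, had 10.9 FPKM in Drosha-deficient and 893 FPKM in wild-type cells. Mir20b (chromosome X) had 105 FPKM in Drosha-deficient and 30105 FPKM in wild-type cells, the widest ratio of those with a value above 0 in both. Mir294 (chromosome 7) had 601 FPKM (Drosha-deficient) and 45569 FPKM (wild type). Of the same cluster, Mir291a had 3027 FPKM in Drosha-deficient and 83824 FPKM in wild-type cells. Mir295 had 1721 FPKM (Drosha-deficient) and 115394 FPKM (wild type), so Mir294 had the widest ratio of those looked up in this cluster. Mir29a (chromosome 6) had 26.2 FPKM (Drosha-deficient) and 1216 FPKM (wild type). The ratios were smallest for Mir222 (chromosome X), 146 FPKM in Drosha-deficient and 1439 FPKM in wild-type cells, and for Mir34a (chromosome 4), 948 FPKM (Drosha-deficient) and 3287 FPKM (wild type). Mir34a did not stand for its family. Mir34c had 79.4 FPKM in Drosha-deficient and 2508 FPKM in wild-type cells, and Mir34b was listed at 0 in Drosha-deficient cells, against 141 FPKM in wild-type cells. Of the other let-7 genes, 3 were looked up, Mirlet7b, Mirlet7c-2 and Mirlet7a-1. All were listed at 0 in Drosha-deficient cells and between 14.5 and 193 FPKM in wild-type cells. In short RNA 1 fragment on 1 kb was worth 0.339 FPKM in the Drosha-deficient and 0.372 FPKM in the wild-type library. On rows as short as these it was worth more, so the lowest values may rest on few fragments. A listed 0 does not show that none was left. No target site was looked for in the members, and the part of these microRNAs in the members' values was not tested.

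The D cyclins, the first cyclins to answer mitogens, did not move as a group: Ccnd1 was called higher in mRNA and the other 2 were called in neither fraction. Ccnd1 (chromosome 7, 144929931 to 144939831, GRCm38, protein-coding) had 65.5 FPKM in Drosha-deficient mRNA, against 24.7 FPKM in wild-type mRNA. In long RNA it had 33.0 FPKM in Drosha-deficient and 18.5 FPKM in wild-type cells. Its log2 difference of 1.37 in mRNA was called higher and its 0.80 in long RNA was not. Among the rows tested, Ccnd1 stood at percentile 89.6 of mRNA levels in Drosha-deficient cells, against percentile 72.8 in wild-type cells. Ccnd3 (chromosome 17, 47505051 to 47599689), the D cyclin with the highest level in wild-type cells, had 58.1 FPKM in Drosha-deficient and 71.4 FPKM in wild-type mRNA. In long RNA it had 18.0 FPKM (Drosha-deficient) and 19.9 FPKM (wild type). Its log2 differences of -0.29 and -0.14 were not called. Ccnd2 (chromosome 6, 127125162 to 127152188) was the lowest member in every mRNA and long RNA library but 1, wild-type long RNA, where Rb1 was lower. It had 2.44 FPKM in Drosha-deficient and 3.05 FPKM in wild-type mRNA. Its long RNA level was 1.21 FPKM in Drosha-deficient and 2.67 FPKM in wild-type cells. In long RNA the ratio was 2.21-fold lower in Drosha-deficient cells, but with 1 FPKM added the log2 difference was -0.73 and not called; with 0.1 FPKM added it was -1.08, past 2-fold. These long RNA values stood for about 27.1 fragments per kb in Drosha-deficient and 49.8 in wild-type cells, the thinnest Drosha-deficient value among the members in the 2 fractions.

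**Figure D1:**
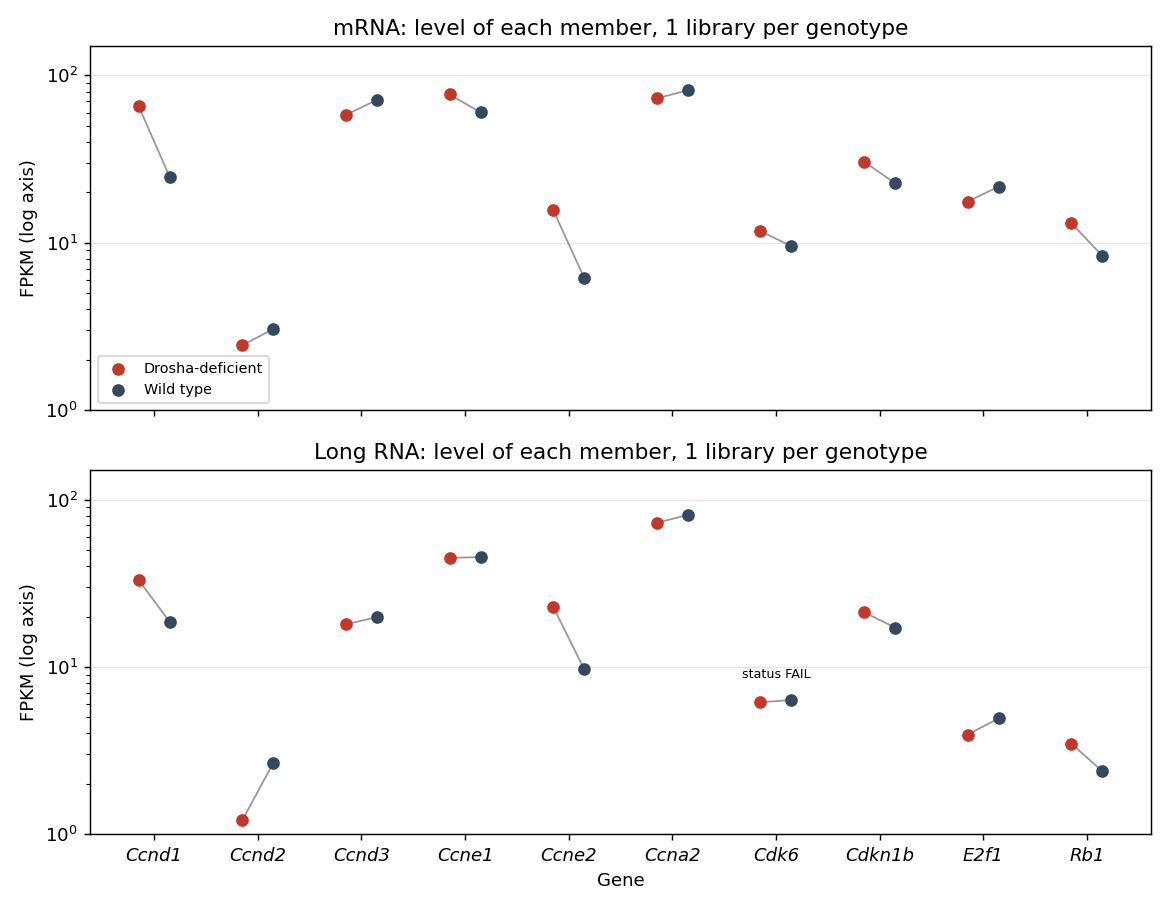
Level of each of the 10 genes in mRNA (top) and long RNA (bottom), in FPKM on a log axis, with the Drosha-deficient library left (red) and the wild-type library right (blue) of each gene. Ccnd1 and Ccne2 have the steepest lines down to wild type in mRNA, and Ccnd2 is near the foot of both panels at 1.21 to 3.05 FPKM.

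FPKM is scaled to transcript length, so the D cyclins were set beside each other within a library. Scaling to length need not remove every difference between genes. The shares also differed between mRNA and long RNA, so each holds for its own library. Ccnd1 made up 52.0% of the summed D cyclin FPKM in Drosha-deficient mRNA, against 24.9% in wild-type mRNA, where Ccnd3 held 72.0%. In long RNA Ccnd1 held 63.2% of the sum in Drosha-deficient and 45.2% in wild-type cells. The leading D cyclin was thus Ccnd1 in both Drosha-deficient libraries and Ccnd3 in both wild-type libraries. The margin was narrow in wild-type long RNA, where Ccnd3 held 48.3%, and in Drosha-deficient mRNA, where Ccnd3 held 46.1%. With 1 library each, these leads have no replicate check. Ccnd2 held 1.94% of the sum in Drosha-deficient and 3.08% in wild-type mRNA, and 2.32% in Drosha-deficient and 6.51% in wild-type long RNA. The sum itself was 126 FPKM in Drosha-deficient and 99.1 FPKM in wild-type mRNA, a ratio of 1.27, and the same ratio of 1.27 was found in long RNA, with 52.2 FPKM in Drosha-deficient and 41.1 FPKM in wild-type cells.

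**Figure D2:**
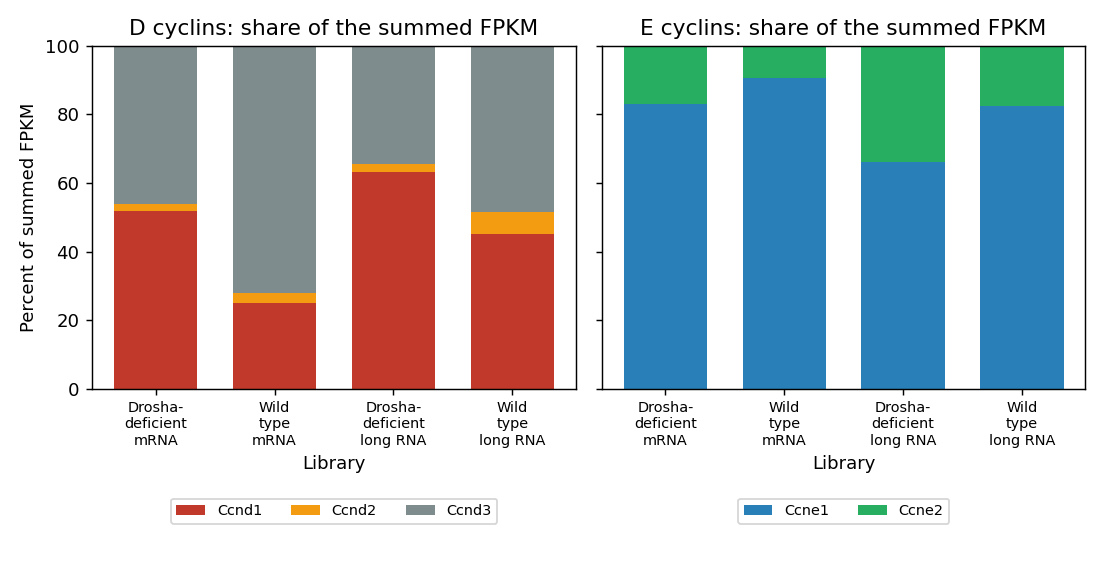
Share of the summed FPKM of the 3 D cyclins (left) and the 2 E cyclins (right) held by each gene, in percent, for the Drosha-deficient and wild-type library of mRNA and of long RNA. The Ccnd1 share in mRNA is 52.0% in Drosha-deficient and 24.9% in wild-type cells, and the Ccne2 share is larger in the Drosha-deficient library of both fractions.

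The E cyclins act after the D cyclins. Ccne2 (chromosome 4, 11190433 to 11204779) had 15.7 FPKM in Drosha-deficient and 6.16 FPKM in wild-type mRNA. In long RNA it had 22.9 FPKM in Drosha-deficient and 9.68 FPKM in wild-type cells. Its log2 differences of 1.22 and 1.16 were both called higher. It was the 1 member called in both fractions, of 9 tested in both. Of all 13322 rows tested in both, 4.58% were called higher in both. Both calls of Ccne2 were lost with 5 FPKM added in place of 1. Its log2 differences were then 0.89 in mRNA and 0.93 in long RNA. Ccne1 (chromosome 7, 38097984 to 38107490), the more abundant E cyclin, had 77.1 FPKM in Drosha-deficient and 60.03 FPKM in wild-type mRNA. In long RNA this gene had 44.8 FPKM in Drosha-deficient and 45.3 FPKM in wild-type cells. Its log2 differences of 0.36 and -0.02 were not called, and the second became 0.03 when centred on the median of all rows and 0.08 with equal FPKM sums. Ccne1 remained ahead of Ccne2 in every library, but by a factor of 4.91 in Drosha-deficient and 9.75 in wild-type mRNA, and of 1.96 in Drosha-deficient and 4.68 in wild-type long RNA. Ccne2 held 16.9% of the summed E cyclin FPKM in Drosha-deficient and 9.30% in wild-type mRNA, and 33.8% in Drosha-deficient and 17.6% in wild-type long RNA. Ccna2 (chromosome 3, 36564865 to 36573038), the cyclin of S phase and G2, had 72.9 FPKM in Drosha-deficient and 81.5 FPKM in wild-type mRNA. In long RNA it had 72.6 FPKM (Drosha-deficient) and 80.9 FPKM (wild type), with log2 differences of -0.16 and -0.15. It was the member with the highest level in 3 of the 4 libraries and stood second to Ccne1 in Drosha-deficient mRNA.

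Cdk6 (chromosome 5, 3341004 to 3531008), a partner kinase of D cyclins, had 11.7 FPKM in Drosha-deficient and 9.54 FPKM in wild-type mRNA, a log2 difference of 0.27 that was not called. In long RNA its row carried the authors' status for a failed estimate, with 6.15 FPKM listed for Drosha-deficient and 6.34 FPKM for wild-type cells. Cdk4, the other D cyclin kinase, was far more abundant, at 523 FPKM in Drosha-deficient and 443 FPKM in wild-type mRNA, which was 44.6 times the level of Cdk6 in Drosha-deficient and 46.4 times in wild-type mRNA. Cdk2, the kinase of the E cyclins, had 37.0 FPKM in Drosha-deficient and 42.6 FPKM in wild-type mRNA. Neither Cdk4 nor Cdk2 was called in mRNA or long RNA.

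Cdkn1b (chromosome 6, 134920401 to 134925525), which binds and blocks cyclin E with Cdk2, had 30.6 FPKM in Drosha-deficient and 22.7 FPKM in wild-type mRNA. In long RNA it had 21.2 FPKM (Drosha-deficient) and 17.2 FPKM (wild type). Its log2 differences of 0.42 and 0.29 were positive in both fractions and not called. Ccnd1 stood at 2.14 times the level of Cdkn1b in Drosha-deficient and 1.09 times in wild-type mRNA. Cdkn1a, the kindred inhibitor that miR-290 cluster microRNAs are known to lower, had 49.6 FPKM in Drosha-deficient and 56.0 FPKM in wild-type mRNA. It had 7.17 FPKM in Drosha-deficient and 10.3 FPKM in wild-type long RNA and was not called in either fraction. Of 7 inhibitors of the INK4 and CIP/KIP families, 6 were tested in each fraction and none was higher. In each fraction 1 was lower, where 7.93% of all rows tested in mRNA and 6.89% in long RNA were. That 1 was Cdkn1c, an imprinted inhibitor of the same family as Cdkn1b, with 5.61 FPKM in Drosha-deficient and 15.7 FPKM in wild-type mRNA. In long RNA Cdkn1c had 4.35 FPKM in Drosha-deficient and 10.6 FPKM in wild-type cells.

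Rb1 (chromosome 14, 73192858 to 73325951) had 13.1 FPKM in Drosha-deficient and 8.35 FPKM in wild-type mRNA. In long RNA Rb1 had 3.48 FPKM in Drosha-deficient and 2.38 FPKM in wild-type cells. Its log2 differences of 0.59 and 0.41 were the largest positive ones among members not called in either fraction. Rbl2, a related pocket protein known as a target of the miR-290 cluster, had 9.36 FPKM in Drosha-deficient and 5.88 FPKM in wild-type mRNA. For Rbl2 the long RNA levels were 5.49 FPKM in Drosha-deficient and 3.30 FPKM in wild-type cells. Rbl1, the third pocket protein, had 8.07 FPKM in Drosha-deficient and 10.3 FPKM in wild-type mRNA. For Rbl1 they were 6.01 FPKM in Drosha-deficient and 7.37 FPKM in wild-type cells. None of the 3 was called. Rb1 was the leading pocket protein of Drosha-deficient mRNA, with 42.9% of their summed FPKM, and Rbl1 led in wild-type mRNA, with 42.0%. In long RNA Rbl1 led in both genotypes, with 40.1% in Drosha-deficient and 56.5% in wild-type cells, and Rb1 was the lowest of the 3, with 23.2% in Drosha-deficient and 18.3% in wild-type cells. E2f1 (chromosome 2, 154559400 to 154569892), which Rb1 restrains, had 17.6 FPKM in Drosha-deficient and 21.7 FPKM in wild-type mRNA. In long RNA E2f1 had 3.94 FPKM in Drosha-deficient and 4.93 FPKM in wild-type cells. Its log2 differences were -0.28 and -0.26.

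In mRNA 2 of the 10 members were called higher, where 8.64% of 14752 rows tested were, and none was called lower, where 7.93% were. In long RNA 1 of 9 tested members was called higher, where 6.26% of 13933 rows were, and none lower, where 6.89% were. The median log2 difference of the members was 0.31 in mRNA, beside 0.01 over all rows, and -0.02 in long RNA, beside -0.04 over all rows. Of the 9 members tested in both fractions, 8 had the same sign in both (88.9%), and so did 80.8% of 13322 rows tested in both; Ccne1 was the exception, with a long RNA value whose sign depends on the scaling. In the authors' deposited tables no member was marked significant in either fraction, where 0.122% of the mRNA rows and 0.136% of the long RNA rows tested were. The authors' deposited q-value was 0.9986 for every member in mRNA and 0.9997 for each of the 9 members tested in long RNA; those values rest on 1 library per genotype and compare libraries, not genotypes.

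**Figure D3:**
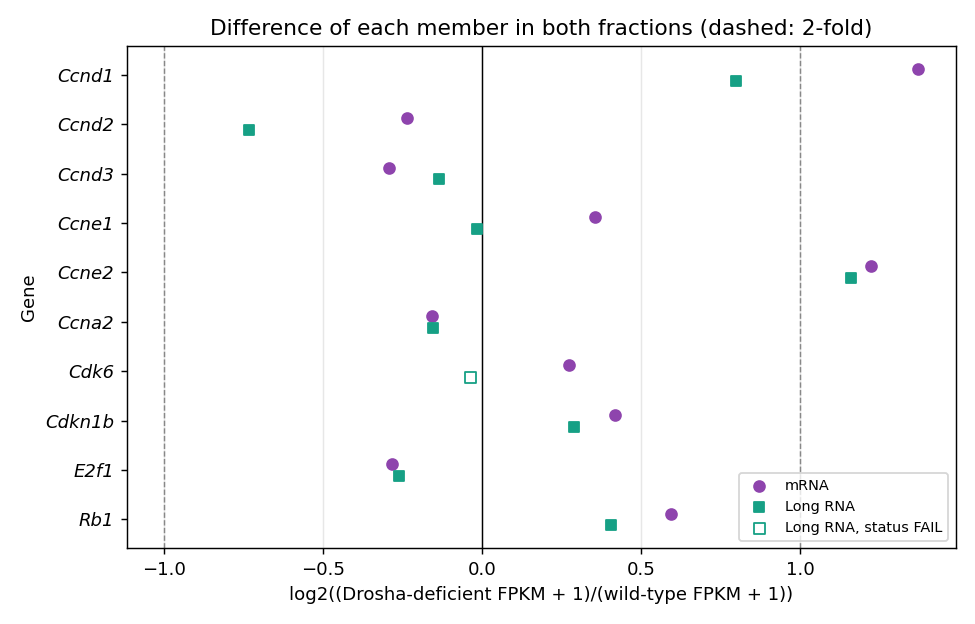
Log2 difference of each member, Drosha-deficient minus wild type on FPKM + 1, in mRNA (circles) and long RNA (squares; open for Cdk6, whose estimate failed), with dashed lines at 2-fold. Ccne2 is past the line in both fractions and Ccnd1 in mRNA, while the other members tested lie between the lines.

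Other genes overlap most members, and the sources used here do not say whether reads were counted by strand, so reads within an overlap cannot be assigned to 1 gene with certainty. Ccne2 overlaps Ints8, a subunit of the Integrator complex, over 5622 bases. Ints8 had 57.7 FPKM in Drosha-deficient and 42.1 FPKM in wild-type mRNA. In long RNA Ints8 had 30.9 FPKM in Drosha-deficient and 30.8 FPKM in wild-type cells. Ccne2 was called higher in both fractions, and the part of Ints8 in the Ccne2 values was not tested. Ccnd1 shares 818 bases with Oraov1, which stood lower in Drosha-deficient mRNA (3.64 FPKM, against 7.10 FPKM in wild-type mRNA), opposite to Ccnd1. The part of Oraov1 in the Ccnd1 value was not tested. Rb1 overlaps Lpar6, a receptor gene, over 2468 bases, and Lpar6 had 2.69 FPKM in Drosha-deficient and 3.35 FPKM in wild-type mRNA. In long RNA Lpar6 had 4.02 FPKM in Drosha-deficient and 2.97 FPKM in wild-type cells, a log2 difference of 0.34 with the same sign as that of Rb1, and its part in the Rb1 value was not tested. Ccne1 and Cdkn1b overlapped no other annotated gene.

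The wider pathway was described with lists of genes, several of which share members with each other and with the 10 genes. Over all rows tested, 8.64% were higher and 7.93% lower in mRNA, and 6.26% higher and 6.89% lower in long RNA. Beside those shares, none or 1 called in lists this small is not a result about the lists. None of 10 E2F and DP factors tested, which bind DNA as pairs, was called in either fraction, with median log2 differences of -0.16 in mRNA and -0.26 in long RNA. None of 19 tested S phase genes known as E2F targets, such as the replicative helicase subunits and thymidylate synthase, was called in either fraction, with medians of 0.13 and -0.07. None of 14 tested genes of G2 and M phase was called either, with medians of -0.14 and -0.08. Of 10 ubiquitin ligase parts that act on G1 regulators, 1 was higher in mRNA and none was called in long RNA. It was Fbxw7, the receptor that marks cyclin E protein for decay, with 16.4 FPKM in Drosha-deficient and 7.62 FPKM in wild-type mRNA. In long RNA Fbxw7 had 16.1 FPKM in Drosha-deficient and 10.4 FPKM in wild-type cells. Skp2, the receptor that marks Cdkn1b protein for decay, had 42.8 FPKM in Drosha-deficient and 23.1 FPKM in wild-type mRNA and was not called. Of 7 genes that switch cyclin-dependent kinases by phosphate, 1 was higher in mRNA, Wee1, a kinase that inhibits them, at 46.9 FPKM in Drosha-deficient and 21.2 FPKM in wild-type mRNA; in long RNA it had 21.4 FPKM (Drosha-deficient) and 17.8 FPKM (wild type) and none of the 7 was called.

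Of 8 genes that feed growth signals to the D cyclins, 1 was higher and 1 lower in each fraction. Mycn, a MYC family factor of ES cells, had 113 FPKM in Drosha-deficient and 51.5 FPKM in wild-type mRNA. In long RNA Mycn had 68.3 FPKM in Drosha-deficient and 32.9 FPKM in wild-type cells. Fos, an immediate early factor, had 3.68 FPKM in Drosha-deficient and 31.0 FPKM in wild-type mRNA. In long RNA Fos had 3.31 FPKM in Drosha-deficient and 17.2 FPKM in wild-type cells. Each of these 2 genes thus kept its direction in both fractions. None of 6 tested DREAM and MuvB complex genes was called in either fraction, and none of the ES cell markers tested was, 9 in mRNA and 8 in long RNA. The ES cell markers ran from -0.66 to 0.32 on the log2 scale in mRNA, with a median of 0.10. In long RNA they ran from -0.93 for Tfcp2l1 to 0.53 for Nanog, with a median of -0.30. Tfcp2l1 had 8.45 FPKM in Drosha-deficient and 17.1 FPKM in wild-type long RNA, close to the limit.

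**Figure D4:**
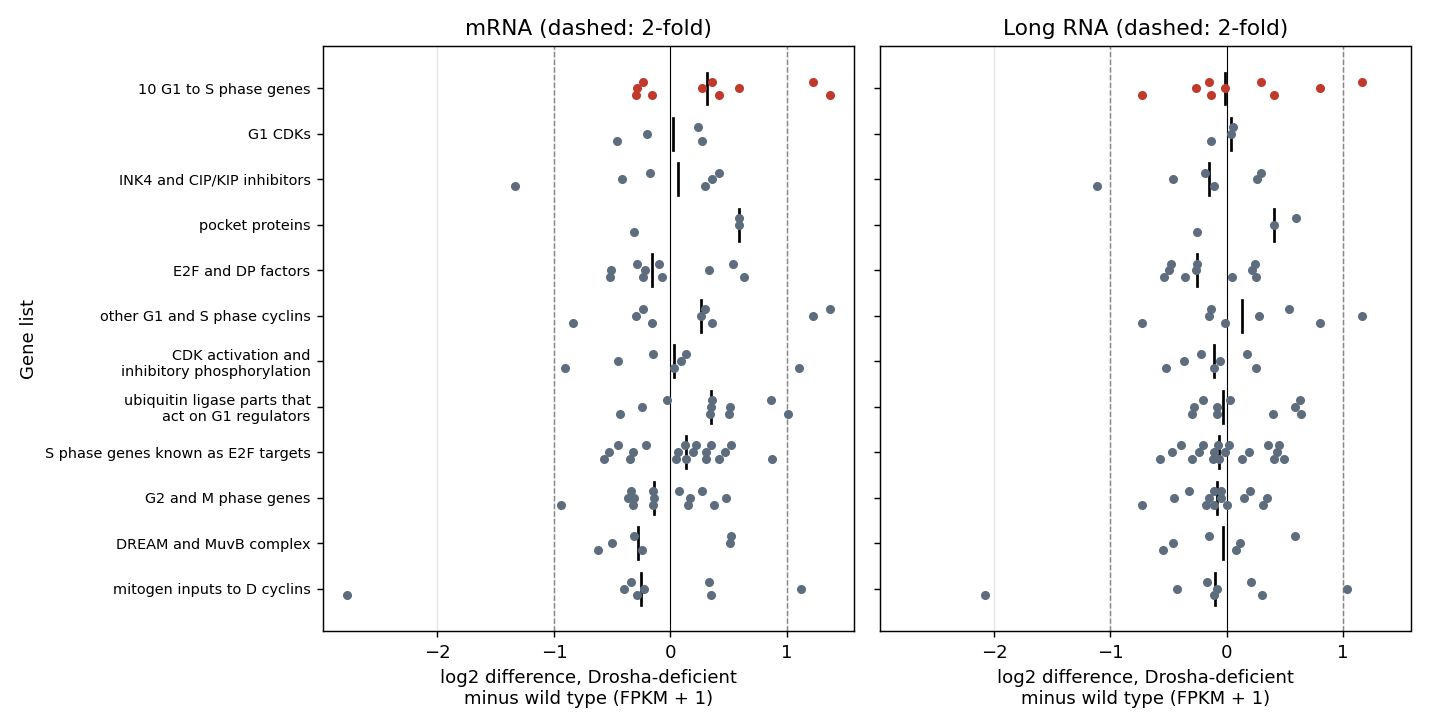
Log2 difference, Drosha-deficient minus wild type on FPKM + 1, of each tested gene of the 10 (red) and of 11 lists of cell cycle genes (grey) in mRNA and long RNA, with the list median as a bar and 2-fold as dashed lines. All tested E2F targets and G2 and M phase genes lie between the dashed lines in both panels.

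Markers of another cell type differed between the cultures. Of 20 fibroblast markers, 16 were tested in mRNA, with none higher and 6 lower, where 7.93% of all rows tested were lower. In long RNA 15 were tested, with none higher and 8 lower, where 6.89% of all rows tested were lower. The summed level of the 20 markers was 339.5 FPKM in Drosha-deficient and 583 FPKM in wild-type mRNA. In long RNA the sum was 142 FPKM in Drosha-deficient and 319 FPKM in wild-type cells. Lum was listed at 0 in wild-type mRNA and in Drosha-deficient long RNA. Col1a2, a type I collagen chain, had 0.116 FPKM in Drosha-deficient and 19.6 FPKM in wild-type mRNA, and Acta2, smooth muscle actin, had 1.41 FPKM (Drosha-deficient) and 28.4 FPKM (wild type). The list was not uniform: Sparc, a matrix protein with the highest level of the list in mRNA, had 218.6 FPKM in Drosha-deficient and 222.1 FPKM in wild-type mRNA. Twist1, a mesenchymal factor, had 3.56 FPKM in Drosha-deficient and 1.68 FPKM in wild-type mRNA and was not called. Dcn, a matrix proteoglycan that stayed under 1 FPKM and was not tested, had 0.999 FPKM in Drosha-deficient and 0.0752 FPKM in wild-type mRNA. In long RNA Twist1 and Dcn also stood above wild type. The part of such cells in the members' values was not tested. In such bulk RNA, fewer cells of a type and less RNA per cell cannot be told apart.

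In short RNA the members were close to the floor, and 2 of the 10 were tested. Ccne1 had 4.78 FPKM in Drosha-deficient and 2.58 FPKM in wild-type short RNA, and Ccna2 had 3.35 FPKM (Drosha-deficient) and 5.38 FPKM (wild type). With 1 fragment per kb worth 0.339 FPKM in the Drosha-deficient and 0.372 FPKM in the wild-type library, these values stood for 6.94 to 14.5 fragments per kb, and neither reached 2-fold on the scale used for calls.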

How the data were processed

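RNA libraries of mouse ES cells were used, 1 per genotype and fraction; Dnmt1-deficient RNA and all methylation samples are not analysed here. The authors deposited gene-level FPKM, made with TopHat2 2.0.10, Cufflinks 2.1.1 and Cuffdiff on mm10/GRCm38 per the submitters' processing notes; the sources used here give no annotation, scaling or strand setting. From the deposited tables, log2 fold changes and q-values of the authors were also read. The labels title no sample long RNA, so that table was taken, by elimination, to belong to the total RNA samples. Rows with the authors' status OK and at least 1 FPKM in 1 of both libraries were tested, across all genes. The pseudocount was 1 FPKM and calls were made at 2-fold, in Python 3.11.15 with pandas 2.3.3. The call was tried on simulated data whose changes were far wider than 2-fold, which says nothing about differences near the limit. Tables were normalized separately, so levels were not compared across fractions. Depth was estimated from the most frequent value of FPKM times row span over rows of short span, where single fragments pile up. Positions and sequences came from RefSeq; overlapping genes were named by position. The 10 genes and all lists were chosen with earlier results of these data known. All 10 were named, with Cdk2, Cdk4, Cdkn1a, Rbl1 and Rbl2 as kin, up to 3 called genes per list and direction, and Drosha, Pou5f1 and Nanog as checks. Skp2, Tfcp2l1, Lum, Sparc, Twist1, Dcn, Mcm7 and the other helicase subunits were named after their values were seen.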

Additional observations from a re-analysis of the deposited data

How the results depend on the processing

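No paired analysis was possible because each genotype had 1 library per fraction, and for the same reason no library could be left out. A pseudocount of 0.1 or 5 FPKM, a minimum of 5 FPKM or none, a call at 1.5-fold, centring on the median of all rows and an equal FPKM sum per library were tried. Ccnd1 in mRNA was called higher under all of them. With a pseudocount of 5 FPKM the members called were 1 in mRNA (Ccnd1) and 0 in long RNA. Ccne2 then had log2 differences of 0.89 in mRNA and 0.93 in long RNA. Of all rows tested, 3.74% were then higher and 2.53% lower in mRNA, and 2.26% higher and 2.4% lower in long RNA. With a pseudocount of 0.1 FPKM, 2 members were called in long RNA, Ccne2 higher and Ccnd2 lower (-1.08). In that setting 9% of all long RNA rows tested were higher and 11.4% lower. At 1.5-fold, 3 members were called in mRNA, with Rb1 added, where 19% of all rows were higher and 19.4% lower. In long RNA 3 were called, with Ccnd1 higher and Ccnd2 lower added, where 13.4% of all rows were higher and 17.3% lower. The members' median in long RNA was 0.14 over the 6 members that reached 5 FPKM, and it turned positive, to 0.03 with centring and 0.08 with equal sums. Of 129 values of single members under the alternatives, 123 stayed on their side of the limit. Much of that count was fixed in advance, since a changed minimum leaves each value as it was. None of the called values changed sign, but only centring and equal FPKM sums could have changed one. The lack of a second library limits every member, and low levels also limit Ccnd2 and all members in short RNA.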

Other observations

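Mcm7, a subunit of the replicative helicase on the S phase list, had 24.2 FPKM in Drosha-deficient and 6455 FPKM in wild-type short RNA. Its row in mRNA had 90.6 FPKM in Drosha-deficient and 65.1 FPKM in wild-type cells, and in long RNA 59.9 FPKM in Drosha-deficient and 44.9 FPKM in wild-type cells. An intron of Mcm7 is known to carry hairpins of the miR-106b cluster, kin of the miR-17 family; their part in the short RNA value was not tested. The other 5 helicase subunits had between 2.60 and 5.22 FPKM in Drosha-deficient short RNA, against 3.52 to 7.09 FPKM in wild-type short RNA.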
